A study of Mus musculus with 12 samples.

Results

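Medulloblastomas of the SHH subgroup from mice carrying Math1-cre, A1G and a heterozygous Ptch1 mutation (Math1-cre;A1G;Ptch1+/-, here A1G tumours) were compared with medulloblastomas of mice carrying the Ptch1 mutation alone (Ptch1+/-). The 8 A1G arrays, 4 of primary and 4 of metastatic tumours, and the 4 Ptch1+/- arrays made up all 12 arrays analysed here. By the labels all mice were heterozygous for the Ptch1 mutation, and the groups differed by Math1-cre and A1G. The state of the other Ptch1 allele in the tumours was not analysed here. Primary and metastatic A1G tumours entered with equal weight, so that a difference is the mean of both A1G site means minus the Ptch1+/- mean. A1G is not spelled out in the labels, and neither is the place of the metastases. For metastatic replicates 2 and 3 the genotype is entered as a phrase that names the mice, unlike that of the other A1G tumours. The labels do not say whether replicates came from separate animals, so p-values measure the spread between these samples, which may be technical. The study set out to profile primary and metastatic medulloblastoma in which ATOH1 acts together with aberrant SHH signalling. The comparison answers which genes differed from Ptch1+/- tumours in the same direction at both A1G sites.

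In the cerebellum, granule cell progenitors divide in response to Sonic hedgehog, which binds the receptor PTCH1 and so relieves its inhibition of SMO, allowing GLI transcription factors to switch on target genes. Loss of PTCH1 function leaves the pathway active without ligand, and medulloblastomas of Ptch1 mutant mice arise from these progenitors. ATOH1, also called MATH1, is a basic helix-loop-helix transcription factor that granule cell progenitors need and that is lost as they mature, and Math1-cre expresses Cre recombinase in cells of this lineage. In whole tumour RNA, fewer cells of a type and less RNA per cell cannot be told apart.

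All values are log2 probe intensity on Illumina BeadChip arrays after background correction and quantile normalization, called log2 signal here. A gene was called when the limma fit to all 12 arrays gave a Benjamini-Hochberg adjusted p under 0.05 over 16724 genes. Unless another comparison is named, a call refers to all A1G against Ptch1+/- tumours. The array median lay at 7.05, and a gene at or below it on every array of a group has no resolved level there, so that its fold is given as "at least". Defining genes of the tissue were read unevenly by the array. Granule progenitor genes had array medians of 12.56 to 12.70 in A1G primary, 12.08 to 12.61 in A1G metastatic and 11.83 to 12.28 in Ptch1+/- tumours over 11 genes tested, and the Atoh1 probe stayed below the array median on all arrays (5.70 to 6.19 in A1G tumours, 5.72 to 6.26 in Ptch1+/- tumours). No source used here says whether that probe reads the A1G transcript.

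Some arrays stood apart by sex-linked genes and by chromosome. Eif2s3y, a Y-linked translation factor gene, read 5.93 to 6.29 in A1G replicates 1, 3 and 4 of both sites and 10.62 and 10.68 in the A1G replicates numbered 2. In Ptch1+/- tumours it read 11.04, 11.09, 10.62 and 5.84. Low Eif2s3y was thus present on 6 of 8 A1G arrays and on 1 of 4 Ptch1+/- arrays, and Xist, the X-inactivation RNA, read 9.71 to 13.04 on those 6 A1G arrays, 8.17 in Ptch1+/- replicate 4 and 5.88 to 6.40 on the other arrays. Counts with Eif2s3y signal as a covariate stand beside the main counts, and the chromosomes that stood apart are described at the end.

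Of 16724 genes, 593 differed between A1G and Ptch1+/- tumours (3.55%), with 379 higher (2.27%) and 214 lower (1.28%) in A1G tumours. Only a minority of these were like shifts at both sites. A gene was taken as shifted at both sites when it was called, had the same sign at each site with a ratio of the smaller to the larger site difference of at least 0.5, and had all 8 A1G arrays above, or all below, all 4 Ptch1+/- arrays. These criteria left 191 genes (1.14%), 69 higher (0.413%) and 122 lower (0.729%) in A1G tumours, and 144 of them had a current gene symbol. Log2 differences ran from 0.42 to 4.64 among the rises and from -0.39 to -2.49 among the falls, with 18 rises and 15 falls of at least 2-fold. Without the ratio, 222 genes had the same sign and did not overlap, and without regard to the call the A1G and Ptch1+/- arrays did not overlap in 420 genes (2.51%).

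With all arrays rises outnumbered falls among the calls, and falls outnumbered rises among the shifts at both sites. Both balances depended on the setting. Without a term for site, the calls were 53, with 21 higher and 32 lower. The shifts were 209 higher and 206 lower without Ptch1+/- replicate 4, and 67 higher and 74 lower without A1G primary replicate 4. After subtraction of each array's chromosome median they were 88 higher and 97 lower. Among the 379 called rises, 132 had a primary difference of at least 0.5 times the metastatic one, and 75 had a primary difference at or below 0. Among the 214 called falls, 174 met that ratio, and 0 had a primary difference at or above 0. In the plot of differences by site, the called rises lay mostly along the metastatic axis, whereas the falls lay nearer the line of equal differences. Each site on its own gave 6 genes for A1G primary against Ptch1+/- tumours (0.0359%) and 1648 for A1G metastatic against Ptch1+/- tumours (9.85%). Both comparisons share the Ptch1+/- arrays.

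**Figure D1:**
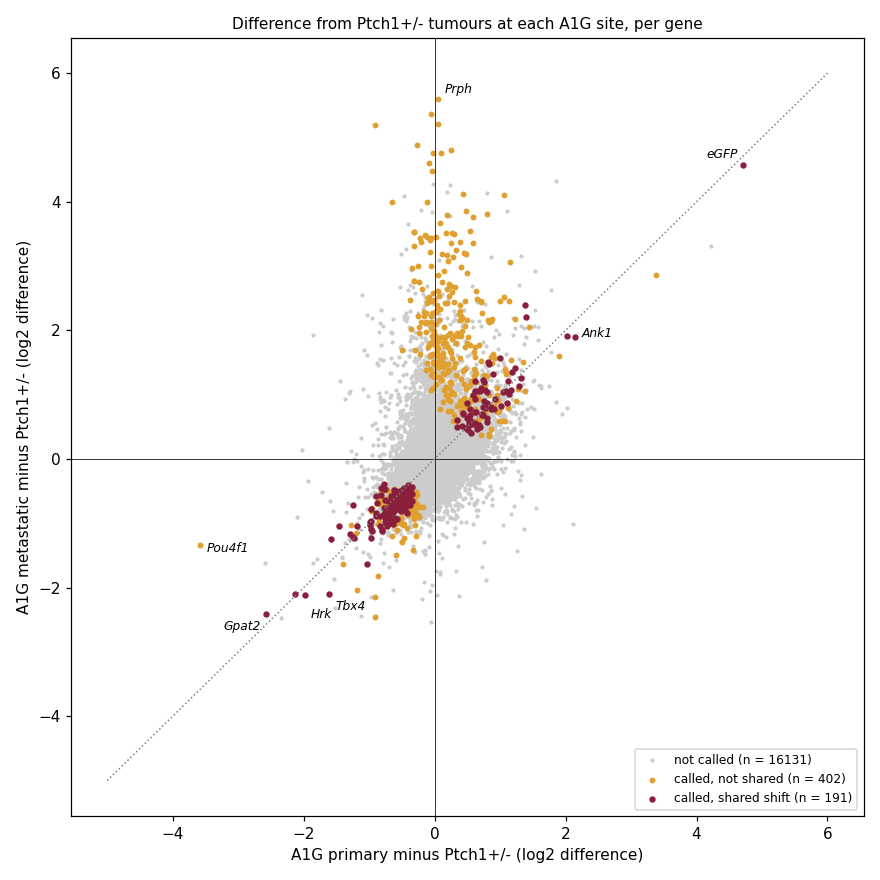
Log2 difference of each of 16724 genes from Ptch1+/- tumours, with A1G primary tumours on the x axis and A1G metastatic tumours on the y axis; the dotted line marks equal differences. Dark red points are the 191 genes shifted at both sites, orange points the 402 other called genes and grey points the 16131 genes not called; Prph lies near 0 on the x axis and above 5 on the y axis, and eGFP lies near the line.

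These counts depended on single arrays. The 593 calls became 304, 321 or 373 without A1G primary replicate 2, 3 or 4, 308 or 372 without A1G metastatic replicate 2 or 4, and 244 or 286 without Ptch1+/- replicate 1 or 3. The 191 shifts at both sites became 108 or 117 without A1G primary replicate 2 or 3, 107 or 118 without A1G metastatic replicate 2 or 4, 92 or 125 without Ptch1+/- replicate 1 or 3, and 415 without Ptch1+/- replicate 4. The 6 genes of the primary comparison became 10 or 60 without Ptch1+/- replicate 2 or 4, and the 1648 of the metastatic comparison 791 or 1007 without A1G metastatic replicate 2 or 4. Deviations of same-numbered A1G arrays from their group means correlated at 0.167 to 0.453. With each such pair averaged, for 4 against 4, 206 genes were called and 50 were shifted at both sites. With same-numbered arrays as a random block the counts were 388 and 137, and with Eif2s3y signal as a covariate 372 and 88. The eGFP reporter, Hrk and Tbx4 were called under each of these settings.

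The strictest criterion asked each A1G site to differ from Ptch1+/- tumours on its own, by taking the larger of both p-values of a gene. Under it 3 genes passed (0.0179%), the eGFP reporter, Hrk and Tbx4, and 5 passed without Ptch1+/- replicate 2. The eGFP probe reads a green fluorescent protein reporter that is no mouse gene. It read 13.08, 11.96, 11.68 and 12.42 in A1G primary and 13.51, 11.76, 11.88 and 11.47 in A1G metastatic tumours, against 8.09, 7.69, 7.18 and 7.36 in Ptch1+/- tumours. No A1G array came within 3 log2 units of any Ptch1+/- array. The difference was 4.64 (SE 0.36, 24.9-fold, adjusted p = 2.9e-05), with 4.70 at the primary and 4.58 at the metastatic site.

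Hrk encodes Harakiri, a BH3-only protein of the BCL2 family that promotes apoptosis in neurons. It read 6.84, 6.72, 6.53 and 6.73 in A1G primary and 6.89, 6.51, 6.67 and 6.23 in A1G metastatic tumours, against 8.71, 8.59, 8.30 and 9.17 in Ptch1+/- tumours. All A1G arrays were below the array median and all Ptch1+/- arrays above it, so Hrk was at least 3.13-fold lower in A1G tumours (log2 difference -2.05, SE 0.16, adjusted p = 3.28e-05). Tbx4, a T-box transcription factor known for its role in hindlimb and lung development, read 7.04, 7.24, 7.13 and 7.12 in A1G primary and 6.43, 7.03, 6.54 and 6.58 in A1G metastatic tumours, against 9.08, 8.77, 8.72 and 8.43 in Ptch1+/- tumours. Its A1G readings lay around the array median at the primary site and below it at the metastatic site, and no A1G array reached a Ptch1+/- array. Tbx4 was 3.07-fold lower at the primary and at least 3.25-fold lower at the metastatic site (log2 difference over both sites -1.86, SE 0.14, adjusted p = 2.9e-05). The highest adjusted p of these falls over the 25 alternative settings that kept their probes was 0.0014 for Hrk and 0.0011 for Tbx4. Hrk was the only gene called among 17 of the BCL2 family and cell death, and of 10 T-box and mesenchymal patterning factors Tbx4 fell and Foxc2 rose, against 1.28% of all genes lower and 2.27% higher. Foxc2 was at or below the array median on all A1G primary and Ptch1+/- arrays, and lost its call under 7 of 25 alternatives. A dimmer second Tbx4 probe, which did not pass the filter on low signal, differed by -0.38.

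The promoters of both genes are shown because ATOH1 binds E-box motifs, and because these were the mouse genes that passed at each site. The stretches are the 250 bases upstream of the annotated start from RefSeq (GRCm38.p6), 5′ to 3′ on the strand of the gene, and capitals mark the E-box motif CAGCTG where present. The E-box motif CAGATG was searched on both strands and is likewise in capitals, as its reverse complement where it lies on the other strand. The Hrk promoter lies at chr5:118169514-118169763 on the plus strand and holds none of them, and the Tbx4 promoter lies at chr11:85896515-85896764 on the plus strand and holds 1 of each.
Hrk: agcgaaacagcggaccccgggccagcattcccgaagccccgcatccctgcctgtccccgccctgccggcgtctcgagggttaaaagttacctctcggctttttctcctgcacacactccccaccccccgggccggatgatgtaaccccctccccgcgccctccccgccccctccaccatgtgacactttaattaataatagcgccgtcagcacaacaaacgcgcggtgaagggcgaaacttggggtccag
Tbx4: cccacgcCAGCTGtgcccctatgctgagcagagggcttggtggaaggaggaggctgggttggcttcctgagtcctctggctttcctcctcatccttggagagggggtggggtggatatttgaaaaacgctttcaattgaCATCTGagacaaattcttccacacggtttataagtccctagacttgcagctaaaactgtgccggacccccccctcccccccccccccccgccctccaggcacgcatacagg
CAGCTG, which reads the same on both strands, was present in 12.8% of all 27025 promoter windows of this length, in 3 of the 36 windows of the 69 rises that had a promoter entry (8.33%) and in 10 of the 85 of the 122 falls (11.8%). CAGATG on either strand was present in 14.5% of all windows, in 11.1% of those of the rises and in 8.24% of those of the falls. Neither motif overlaps the other. A match describes the letters of the window and is not a binding site.

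**Figure D2:**
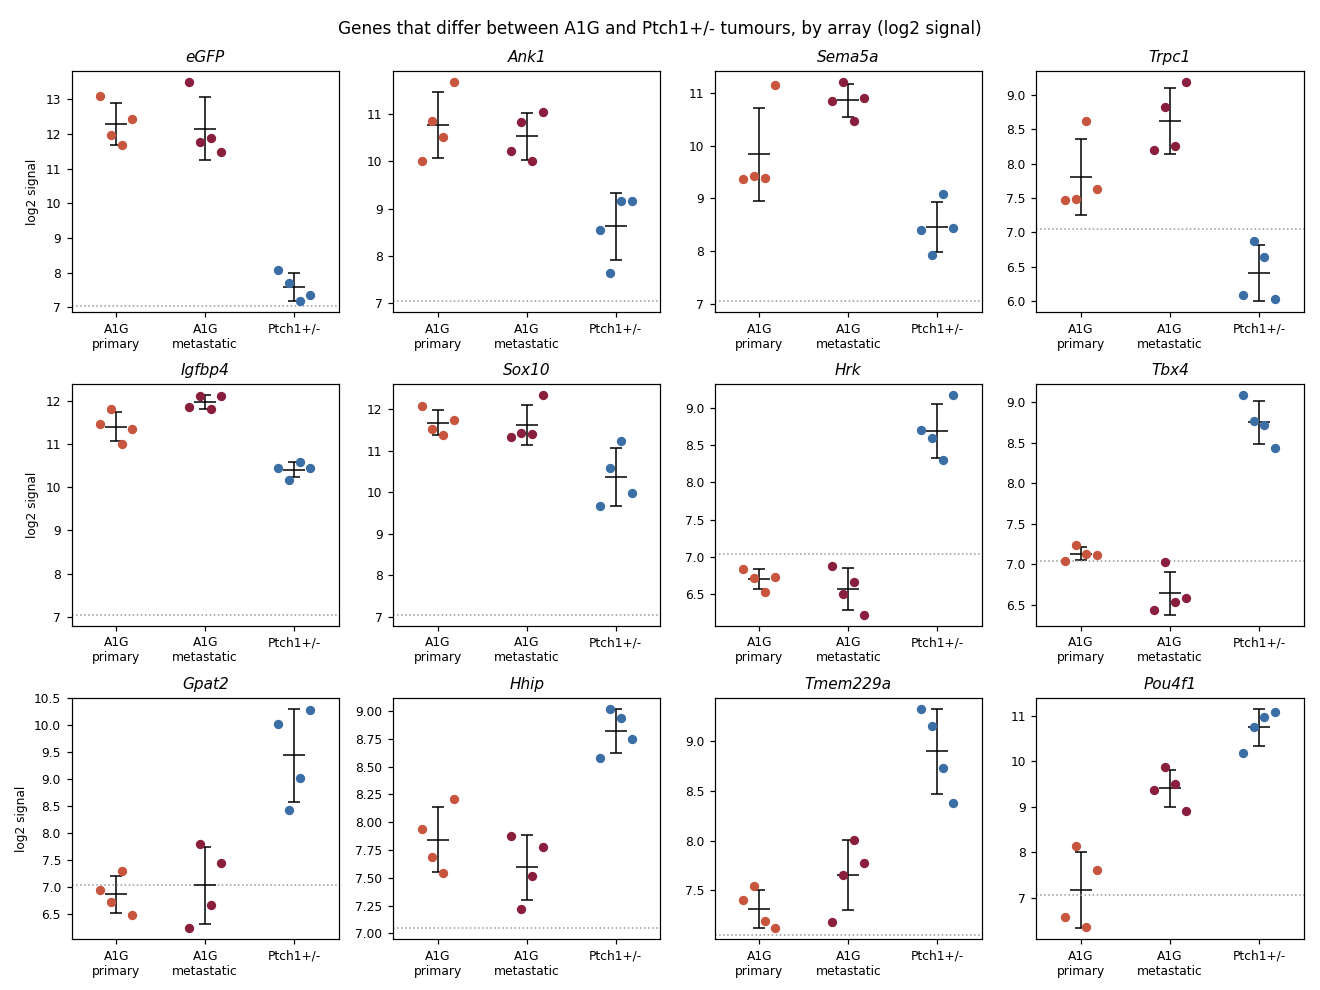
Log2 signal of 12 genes on each array (y axis, one panel per gene, scales differ) for A1G primary, A1G metastatic and Ptch1+/- tumours; points are arrays, bars are the mean ± SD of 4 arrays and the dotted line is the array median of 7.05. In the panels of eGFP, Ank1, Sema5a, Trpc1, Igfbp4 and Sox10 all A1G points lie above all Ptch1+/- points, and in the other 6 panels all lie below.

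Of the 11 genes of the SHH pathway tested, 3 were called for A1G metastatic and 0 for A1G primary against Ptch1+/- tumours. The shares of all genes were 9.85% and 0.0359%. Over both sites 1 of the 11 fell, and 0 rose, against 1.28% and 2.27% of all genes. That gene was Hhip, a membrane protein that binds hedgehog ligands, antagonizes the pathway and is itself one of its transcriptional targets. Hhip read 7.94, 7.69, 7.54 and 8.21 in A1G primary and 7.87, 7.22, 7.52 and 7.77 in A1G metastatic tumours, against 8.58, 9.02, 8.94 and 8.75 in Ptch1+/- tumours. All 8 A1G arrays were below all Ptch1+/- arrays, for a 2.14-fold lower signal (log2 difference -1.10, SE 0.16, adjusted p = 0.0037), and the call held under all 26 alternatives (highest adjusted p 0.030). The window upstream of Hhip, at chr8:80058009-80058258 on the minus strand, is shown for the GLI motif GACCACCCA, which was searched on both strands and is not in it. The motif was present in 0.211% of all promoter windows and in 0 of those of the rises and falls, and both E-box motifs were likewise not in the window of Hhip.
Hhip: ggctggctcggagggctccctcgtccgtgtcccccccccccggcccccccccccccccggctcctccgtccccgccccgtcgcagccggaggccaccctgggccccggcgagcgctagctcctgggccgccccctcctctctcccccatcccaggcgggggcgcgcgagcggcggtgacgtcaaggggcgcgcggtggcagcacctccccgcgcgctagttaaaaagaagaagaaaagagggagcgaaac

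The receptors and transducers of the pathway gave no call. Ptch1, the receptor gene for which all mice were labelled heterozygous, read 11.57, 10.79, 11.08 and 10.69 in A1G primary and 11.62, 9.99, 10.73 and 10.41 in A1G metastatic tumours, against 11.30, 11.14, 11.01 and 11.33 in Ptch1+/- tumours. The groups overlapped, and the difference was -0.33 (SE 0.26, adjusted p = 0.45). Smo differed by -0.13 (SE 0.20), the GLI inhibitor Sufu by 0.07 (SE 0.18) and the activator Gli2 by 0.20 (SE 0.22), with adjusted p from 0.60 to 0.85. Probes disagreed, with -0.65 for a second Gli2 probe and with -0.66, 0.06 and 0.07 for the other kept Sufu probes. Gli1, the target commonly used to read pathway activity, and Mycn were at or below the array median on all arrays and were not tested.

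Gli3, a GLI factor that acts mainly as a repressor, depended on a single array. It read 7.93, 8.57, 7.28 and 8.08 in A1G primary and 7.95, 8.56, 8.92 and 9.47 in A1G metastatic tumours, against 6.42, 10.87, 7.07 and 7.00 in Ptch1+/- tumours. Ptch1+/- replicate 2 exceeded every other array, and the remaining Ptch1+/- arrays lay below all A1G arrays. With all arrays the difference was 0.51 (SE 0.66, adjusted p = 0.68), and without that replicate it was 1.52 (adjusted p = 0.026).

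**Figure D3:**
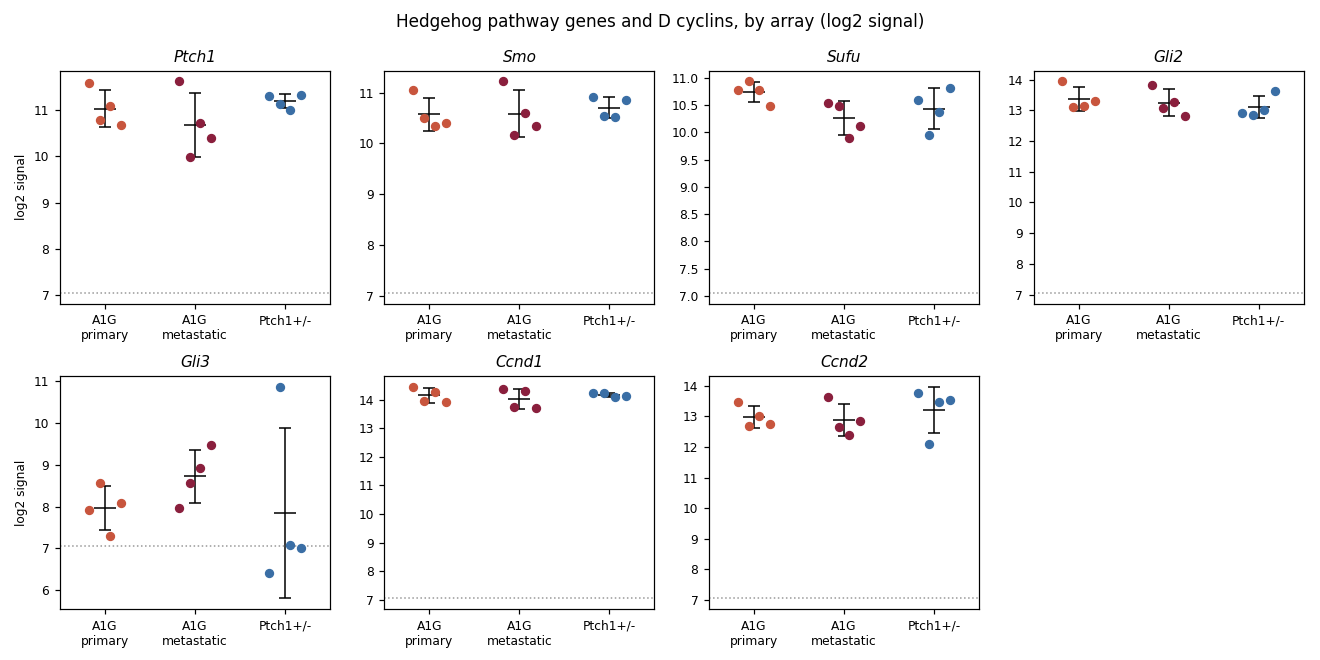
Log2 signal on each array (y axis, scales differ) of 5 hedgehog pathway genes and 2 D cyclins for A1G primary, A1G metastatic and Ptch1+/- tumours; points are arrays, bars the mean ± SD of 4 arrays and the dotted line the array median of 7.05. The groups overlap in all panels, and 1 Ptch1+/- array at 10.87 stands above the other arrays for Gli3.

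Neither D cyclin was called. Ccnd1, the cyclin through which SHH drives granule progenitor division, differed by -0.08 (SE 0.16) and Ccnd2 by -0.28 (SE 0.31), with adjusted p of 0.77 and 0.60. Of 27 cell cycle genes 2 fell and 0 rose, against 1.28% and 2.27% of all genes, with a list median of -0.27 against -0.05 over all genes. They were the S and G2 phase cyclin Ccna2 (-0.89, SE 0.19, adjusted p = 0.026) and the G1 kinase Cdk6 (-0.82, SE 0.20, adjusted p = 0.046), and neither met the criteria for a shift at both sites. Ccna2 lost its call under 5 of 25 alternatives and Cdk6 under 16 of 26. None of 11 granule progenitor genes (list median -0.04) and none of 14 granule neuron differentiation genes (0.27) was called, against 3.55% of all genes. For A1G metastatic against Ptch1+/- tumours 2 and 0 of them were called, against 9.85% of all genes.

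The largest fall among the genes shifted at both sites was that of Gpat2, a glycerol-3-phosphate acyltransferase of the mitochondrial outer membrane that is best known from the testis. It read 6.94, 6.73, 7.30 and 6.48 in A1G primary and 6.24, 7.80, 6.66 and 7.44 in A1G metastatic tumours, against 10.02, 8.43, 9.02 and 10.29 in Ptch1+/- tumours. Its A1G signal was at or below the array median on 3 primary and 2 metastatic arrays. Gpat2 was 5.62-fold lower (log2 difference -2.49, SE 0.36, adjusted p = 0.0037). Tmem229a, a predicted transmembrane protein gene on chromosome 6, read 7.40, 7.54, 7.19 and 7.12 in A1G primary and 7.18, 7.65, 8.01 and 7.77 in A1G metastatic tumours, against 9.33, 9.15, 8.72 and 8.38 in Ptch1+/- tumours. The groups did not overlap, with a 2.66-fold lower signal (-1.41, SE 0.19, adjusted p = 0.0026), but a second Tmem229a probe differed by only -0.19.

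Nat2, an arylamine N-acetyltransferase that conjugates drugs, read 7.40, 7.26, 7.38 and 7.48 in A1G primary and 8.26, 7.65, 7.99 and 7.76 in A1G metastatic tumours, against 8.44, 8.96, 8.64 and 8.46 in Ptch1+/- tumours. The primary arrays formed a tight group below the metastatic ones, and both lay below the Ptch1+/- arrays, for a 1.97-fold lower signal (-0.98, SE 0.14, adjusted p = 0.0032). Gstp2, a glutathione S-transferase of the pi class, was 2.38-fold lower (-1.25, SE 0.23, adjusted p = 0.013), and since it is a close paralog of Gstp1 its probe may read both. In the list of drug and acyl transferases 2 of 14 fell, Nat2 and Gpat2, both at both sites, and 0 rose, against 1.28% of all genes lower and 2.27% higher, with a list median of 0.20. Gsto1, an omega class glutathione transferase that was not in the list, went the other way, 2.24-fold higher (1.17, SE 0.28, adjusted p = 0.042), and lost its call under 13 of 26 alternatives.

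Other falls at both sites included a receptor gene and a long noncoding RNA. Sucnr1, the G protein-coupled receptor for succinate, read 6.35 to 7.04 on the A1G arrays, all at or below the array median, against 8.16, 7.37, 7.90 and 7.64 in Ptch1+/- tumours, and was at least 1.65-fold lower (adjusted p = 0.0041). The long noncoding RNA Crnde was 2.35-fold lower (-1.23, SE 0.21, adjusted p = 0.0091), with site differences of -1.23 at both sites. Clec2e, a C-type lectin-like gene on chromosome 6, was 2.53-fold lower (-1.34, SE 0.20, adjusted p = 0.0048), while a second probe differed by -0.16. Gm5, Gm5135, Bnip5, 2610001J05Rik and Ttc27 fell by 0.97 to 1.23 on the log2 scale (adjusted p 0.0028 to 0.047), and of these Ttc27 lost its call under 16 alternatives and Gm5135 under 2.

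Among the rises shifted at both sites, the largest after eGFP was Ank1, which encodes ankyrin 1, the adaptor that links the spectrin cytoskeleton to the membrane in red cells and some neurons. It read 10.02, 10.84, 10.52 and 11.68 in A1G primary and 10.22, 10.83, 10.01 and 11.05 in A1G metastatic tumours, against 8.55, 7.65, 9.15 and 9.16 in Ptch1+/- tumours. The groups did not overlap, and Ank1 was 4.05-fold higher (2.02, SE 0.34, adjusted p = 0.0091). Of the other erythroid genes tested, Hba-a1 differed by 1.28, Hbb-b1 by 1.12 and Slc4a1 by 0.59, none called (adjusted p 0.34 to 0.42). The list's array medians ran from 9.92 to 12.41 in A1G primary and 10.21 to 12.76 in A1G metastatic tumours, against 9.16 to 10.18 in Ptch1+/- tumours, and the part of red cells in the Ank1 difference was not tested.

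Sema5a, a transmembrane semaphorin of axon guidance, read 9.36, 9.43, 9.39 and 11.16 in A1G primary and 10.85, 11.22, 10.47 and 10.91 in A1G metastatic tumours, against 8.39, 7.93, 9.09 and 8.44 in Ptch1+/- tumours. Primary replicate 4 stood with the metastatic arrays and above the other primary arrays. Sema5a was 3.70-fold higher (1.89, SE 0.32, adjusted p = 0.0094). Its probes disagreed, with 1.61 for a second probe and -0.11 and -0.24 for the other kept probes. Of 21 axon guidance and migration genes in the list, which does not hold Sema5a, 0 were called, against 3.55% of all genes. The list median was -0.06. For A1G metastatic against Ptch1+/- tumours 4 of the 21 were called, against 9.85% of all genes.

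Among the channel genes named by their size of change, Trpc1, a subunit of nonselective cation channels, read 7.47, 7.49, 8.63 and 7.63 in A1G primary and 8.20, 8.83, 8.25 and 9.19 in A1G metastatic tumours, against 6.09, 6.87, 6.64 and 6.03 in Ptch1+/- tumours. All Ptch1+/- arrays were below the array median and all A1G arrays above it, so Trpc1 was at least 2.24-fold higher (log2 difference 1.80, SE 0.26, adjusted p = 0.0037). Trpm7, a cation channel with a kinase domain, was 1.89-fold higher (0.92, SE 0.20, adjusted p = 0.029), and lost its call under 8 of 26 alternatives. Grin3a, an NMDA receptor subunit that lowers calcium permeability, read 12.06, 12.18, 12.17 and 12.22 in A1G primary and 11.96, 11.72, 12.47 and 12.12 in A1G metastatic tumours, against 11.42, 10.45, 11.48 and 10.61 in Ptch1+/- tumours. It was 2.18-fold higher (1.12, SE 0.20, adjusted p = 0.012) without overlap, and lost its call only with the same-numbered A1G arrays averaged (adjusted p = 0.064). Srr, serine racemase, which makes the NMDA receptor co-agonist D-serine, was 1.90-fold higher (0.93, SE 0.19, adjusted p = 0.022), with 1.05 and -0.05 for its other kept probes and a lost call under 5 alternatives. Of 14 glutamate and GABA receptor genes 2 rose and 0 fell, against 2.27% and 1.28% of all genes. They were Grin3a, at both sites, and Grik1, whose call was lost under 15 of 26 alternatives, the averaged pairs among them (adjusted p = 0.095), and whose other kept probes differed by 0.12 and 0.22.

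Sox10, a transcription factor of oligodendrocytes and Schwann cells, read 12.08, 11.53, 11.37 and 11.76 in A1G primary and 11.32, 11.43, 11.41 and 12.34 in A1G metastatic tumours, against 9.66, 10.59, 11.23 and 9.97 in Ptch1+/- tumours. Ptch1+/- replicate 3 came within 0.1 of the lowest A1G arrays without reaching them. Sox10 was 2.45-fold higher (1.29, SE 0.28, adjusted p = 0.029) and lost its call under 8 of 26 alternatives, among them the averaged pairs (adjusted p = 0.092) and the Eif2s3y covariate (adjusted p = 0.074). Of the 10 oligodendrocyte markers Sox10 alone was called, against 3.55% of all genes. For A1G metastatic against Ptch1+/- tumours 3 were called, against 9.85% of all genes. The list's array medians were 9.08 to 11.22 in A1G primary and 10.60 to 12.65 in A1G metastatic tumours, against 8.01 to 11.15 in Ptch1+/- tumours. Of 12 oligodendrocyte precursor markers 0 were called, and 3 were called for A1G metastatic against Ptch1+/- tumours. Their array medians were 9.70 to 10.55 in A1G primary and 7.37 to 8.88 in A1G metastatic tumours, against 8.34 to 9.48 in Ptch1+/- tumours. The part of these cell types in the Sox10 difference was not tested.

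Igfbp4, which encodes a secreted binding protein of insulin-like growth factors, had the smallest adjusted p of the mouse genes that rose at both sites. It read 11.48, 11.81, 11.01 and 11.35 in A1G primary and 11.86, 12.12, 11.81 and 12.11 in A1G metastatic tumours, against 10.45, 10.16, 10.60 and 10.44 in Ptch1+/- tumours. The groups were separated on all arrays, with a 2.43-fold higher signal (1.28, SE 0.15, adjusted p = 0.00076), a second probe at 1.12 and a call under all 26 alternatives. Faah, which degrades the endocannabinoid anandamide, was 2.50-fold higher (1.32, SE 0.27, adjusted p = 0.023), with 1.47 and -0.04 for its other kept probes and a lost call under 6 of 25 alternatives. Aatk, a neuronal kinase gene first described in apoptosis, was 2.41-fold higher (1.27, SE 0.22, adjusted p = 0.011), and Ndn, an imprinted growth suppressor of postmitotic neurons, 1.99-fold higher (0.99, SE 0.19, adjusted p = 0.016). With the A1G pairs averaged neither was called (adjusted p 0.060 for Aatk and 0.052 for Ndn), and Ndn lost its call under 4 of 26 alternatives in all. Zxda, Ifngr2, the second chain of the interferon gamma receptor, and the amino acid transporter family gene Slc7a4 rose by 0.91 to 0.97 (adjusted p 0.0087 to 0.049), and Slc7a4 lost its call under 17 alternatives and Ifngr2 under 8.

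Of 12 transcription factors of sensory and unipolar brush type neurons, 1 rose and 1 fell, against 2.27% and 1.28% of all genes. Tlx3, a homeobox gene of glutamatergic neurons, rose at both sites, 1.71-fold (0.77, SE 0.18, adjusted p = 0.041), but lost its call under 15 of 26 alternatives. Pou4f1, a POU homeobox gene of sensory neurons, read 6.58, 8.13, 6.36 and 7.61 in A1G primary and 9.36, 9.88, 9.50 and 8.90 in A1G metastatic tumours, against 10.18, 10.75, 10.98 and 11.09 in Ptch1+/- tumours. All A1G arrays were below all Ptch1+/- arrays, with a difference of -2.46 (SE 0.31, adjusted p = 0.0016). It was not a like shift at both sites, since it was lower by 3.58 at the primary and by 1.34 at the metastatic site. The difference between the sites was itself called (2.24, adjusted p = 0.0022).

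Across all genes, 873 differed between A1G metastatic and A1G primary tumours (5.22%), and 237 of the 593 genes called against Ptch1+/- tumours were among them, against 0 of the 191 shifted at both sites, whose choice by a ratio favours genes with small site differences. Prph, the intermediate filament peripherin of peripheral neurons, read 6.45, 6.88, 6.61 and 7.31 in A1G primary and 12.57, 13.11, 11.91 and 11.82 in A1G metastatic tumours, against 6.91, 6.69, 6.80 and 6.63 in Ptch1+/- tumours. The metastatic arrays alone stood apart, by 5.59 against Ptch1+/- tumours, while the primary difference was 0.05. The pooled difference of 2.82 for Prph is therefore an average over unlike sites and no shared shift.

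Most lists had 0 genes called for A1G primary against Ptch1+/- tumours, where only 0.0359% of all genes were called. Among them were 4 lists with many calls at the metastatic site. For A1G metastatic against Ptch1+/- tumours, calls were made for 9 of 11 Schwann cell markers and 9 of 11 peripheral and sensory neuron markers. They were also made for 9 of 16 Hox genes and 11 of 16 meningeal fibroblast and matrix markers, against 9.85% of all genes. The filter on low signal kept genes that were above the array median on the 4 metastatic arrays alone, such as Hoxc6, Hoxc9 and Prx. The shares called in these lists, at the metastatic site and over both sites, are therefore partly set by the filter. Over both sites, called rises made up 7 of 11 Schwann cell markers, 7 of 11 peripheral and sensory neuron markers, 7 of 16 Hox genes and 5 of 16 meningeal fibroblast and matrix markers, against 2.27% of all genes, and of all these only Sox10 was shifted at both sites. Schwann cell markers had array medians of 6.95 to 7.33 in A1G primary and 9.94 to 11.25 in A1G metastatic tumours, against 6.71 to 7.29 in Ptch1+/- tumours. Meningeal and matrix markers had 7.42 to 8.29 in A1G primary and 10.46 to 10.78 in A1G metastatic tumours, against 7.35 to 8.64 in Ptch1+/- tumours. Of 20 interferon and antigen presentation genes, 8 were called for A1G metastatic and 0 for A1G primary against Ptch1+/- tumours, against 9.85% and 0.0359% of all genes. Over both sites 2 of the 20 rose, against 2.27% of all genes. They were the class I gene H2-D1 (1.22, SE 0.20, adjusted p = 0.0068) and the invariant chain Cd74 (1.57, SE 0.39, adjusted p = 0.046). Cd74 lost its call under 18 of 26 alternatives, among them the averaged pairs (adjusted p = 0.079) and the Eif2s3y covariate (adjusted p = 0.063). H2-D1 read 11.21 to 11.88 in A1G primary and 11.89 to 12.57 in A1G metastatic tumours, against 10.34 to 11.31 in Ptch1+/- tumours, so that 1 A1G primary array overlapped the Ptch1+/- range, and its probe may also read related class I genes. Its other kept probes differed by 1.01 and -0.17. Ribosomal protein genes, 0 of 11 called, had a list median of -0.06.

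By chromosome, falls at both sites were unevenly spread. Of the 102 falls with a known chromosome, 21 lay on chromosome 6 (2.92% of its 719 genes), 10 on chromosome 17 and 8 on chromosome 14. Together they made up 2.09% of the genes of these chromosomes, against 0.547% of the genes elsewhere. These chromosomes had the largest shares of falls, so that this contrast is partly set by their choice. Of the 49 rises with a known chromosome, 1 lay on these chromosomes, which hold 1863 of the 13371 genes with a known chromosome. The median centred signal of chromosome 6 genes was 0.07, -0.12, -0.15 and 0.03 in A1G primary and 0.06, -0.11, -0.16 and -0.12 in A1G metastatic tumours, against 0.16, -0.14, 0.18 and 0.26 in Ptch1+/- tumours. Ptch1+/- replicates 1, 3 and 4 were above all other arrays, and replicate 2 was among the low ones. The same 3 arrays were above all others in 5 of 6 blocks of chromosome 6 in gene order, and in the remaining block A1G metastatic replicate 1 read 0.12, against 0.05, 0.12 and 0.28 in these Ptch1+/- replicates.

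Chromosomes 14 and 17 each stood out on 1 array. The chromosome 14 median was 0.23 in Ptch1+/- replicate 3, and the chromosome 17 median 0.21 in Ptch1+/- replicate 1, while array medians of the chromosomes other than 6, 14 and 17 lay between -0.07 and 0.11. After subtraction of each array's chromosome median, 185 genes were shifted at both sites, 88 higher and 97 lower. Of the 97 falls 18 lay on chromosomes 6, 14 and 17, against 39 of 122 before. Of the 88 rises 6 lay there, against 1 of 69 before. Tmem229a then differed by -1.19 (adjusted p = 0.015) and Clec2e by -1.11 (adjusted p = 0.0091), and Ttc27 on chromosome 17 was no longer called (adjusted p = 0.059).

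**Figure D4:**
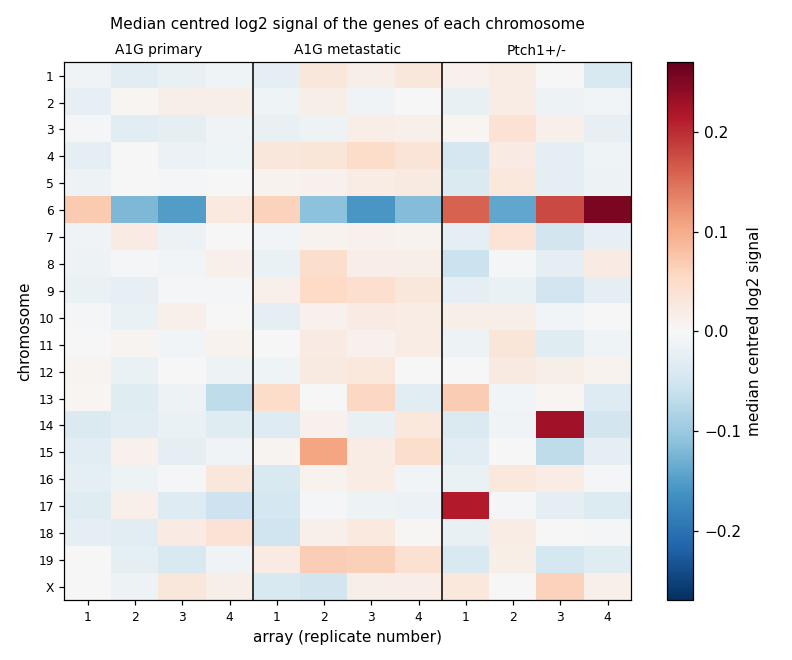
Median centred log2 signal (colour) of the tested genes of each chromosome (y axis) on each array (x axis, replicate number) of A1G primary, A1G metastatic and Ptch1+/- tumours. Chromosome 6 is high in Ptch1+/- replicates 1, 3 and 4, chromosome 14 in Ptch1+/- replicate 3 at 0.23 and chromosome 17 in Ptch1+/- replicate 1 at 0.21.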

How the data were processed

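Total RNA of the 12 tumour samples was extracted with Trizol, treated with DNase I and labelled as biotinylated cRNA, per the labels' protocols. The authors deposited linear intensity values of 45281 probes, already normalized between arrays to medians of 187 to 187.1 by a method no source used here gives. A second deposited table served only for gene symbols and chromosomes, since its 24 per-array columns are named by chip and position (2 chips of 6 arrays) and were left out. The chip of each sample is not known, so chip could not be tested, and detection p-values were not used.

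With limma 3.58.1 (R 4.3.3), the deposited intensity was corrected for background (normexp, offset 50), quantile normalized and put on the log2 scale, in place of the planned correction by detection p. Probes above their array's median on at least 4 of 12 arrays were kept (24443), and the brightest probe stood for each of 16724 genes, 5233 of which had several. A model with 3 group means was fitted (lmFit, eBayes; 9 residual and 3.67 prior degrees of freedom) and tested on simulated data. Deviations of same-numbered A1G primary and metastatic arrays from their group means correlated at 0.453, 0.167, 0.211 and 0.271. Those of same-numbered A1G and Ptch1+/- arrays ran from -0.075 to 0.342. Whether the numbers pair the A1G sites is not given by the labels and was not tested. The comparisons, the 36 gene lists and the genes were chosen with earlier results of these data known, so no list is independent evidence. Named were the 15 largest rises and 15 largest falls at both sites among genes with a current symbol, genes passing at each site, up to 2 called members per list, set pathway genes and the 5 called genes with the largest site difference; some genes that met this rule are not reported here. Promoters came from RefSeq (GRCm38.p6). The number of arrays and dim signals limit the precision.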

Additional observations from a re-analysis of the deposited data

Results flagged for a closer look

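In groups of 4 arrays, a sample was singled out when its gap to the nearest other array exceeded Dixon's critical share of the group's range. Of 243 such groups 13 met this, where chance gives about 5%. Among A1G primary arrays these were Faah at 9.28, Scn11a at 8.42 and Sema5a at 11.16 in replicate 4, Gsto1 at 11.05 in replicate 2, Trpc1 at 8.63 in replicate 3 and Mfap5 at 5.84 in replicate 1. Among A1G metastatic arrays they were Sostdc1 at 8.60 and Sox10 at 12.34 in replicate 4 and the chromosome 7 median at -0.01 in replicate 1. Among Ptch1+/- arrays they were Gli3 at 10.87 in replicate 2, Gm5135 at 9.79 and the chromosome 17 median at 0.21 in replicate 1, and the chromosome 14 median at 0.23 in replicate 3.

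For 19 of the 61 named genes tested, the effect against Ptch1+/- tumours differed between the A1G sites by a called difference of metastatic minus primary tumours, against 5.22% of all genes. The share is partly set by the choice of the named genes, which includes those with the largest site differences. On the log2 scale these site differences were 6.09 for Sncg, 5.54 for Prph, 5.16 for Avil and 5.16 for Scn11a, all genes of peripheral neurons. The neuropeptide genes Calca and Tac1 differed by 4.52 and 3.67, and Hoxc6 and Hoxc9 by 4.55 and 3.49. The matrix genes Ogn and Mfap5 differed by 4.68 and 4.65, and Prx, periaxin of Schwann cells, by 3.05. Sostdc1 differed by 3.00, Ndrg1 by 2.40, Hspb8 by 2.33, Hspb1 by 2.23, Cd74 by 1.84, Foxc2 by 1.45 and Grik1 by 1.28. Pou4f1, at 2.24, was the only one of these that was lower than in Ptch1+/- tumours at both sites.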

How the results depend on the processing

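The counts of all A1G against Ptch1+/- tumours, of shifts at both sites, of genes passing at each site, and of A1G primary against Ptch1+/-, A1G metastatic against Ptch1+/- and A1G metastatic against A1G primary tumours were 593, 191, 3, 6, 1648 and 873. With single arrays left out they ranged from 244 to 731, 92 to 415, 3 to 5, 4 to 60, 791 to 1645 and 605 to 963, and the 60 arose without Ptch1+/- replicate 4. Requiring probes above the array median on all 12 arrays left 12219 genes and gave 393 calls, 3 for the primary and 428 for the site comparison. There 1 gene passed at each site, since Hrk and Tbx4, dim in A1G tumours, were not tested. Array weights gave 347 calls and 121 shifts at both sites. Leaving out metastatic replicates 2 and 3 gave 312, 117, 601 for the metastatic and 425 for the site comparison. With no term for site, 8 against 4 arrays gave 53 calls. A ratio of 0.75 left 120 shifts, and dropping the separation of arrays gave 303. The following were chosen after seeing the data. Averaging the pairs of same-numbered A1G arrays gave 206 calls and 50 shifts; as a random replicate block (correlation 0.25) they gave 388 calls and 1440 genes for the site comparison. The planned replicate block over all 3 groups gave 806, 193, 3, 6, 1895 and 970. The Eif2s3y covariate gave 372 calls and 88 shifts. Under it Ccna2, Cd74, Cdk6, Faah, Foxc2, Gm5135, Ifngr2 and Ndrg1 lost their calls (adjusted p 0.053 to 0.12). So did Scn11a, Slc7a4, Sox10, Srr, Tlx3, Trpm7 and Ttc27 (adjusted p 0.066 to 0.14). The cause of these moves was not tested. No named gene reversed a called direction. Of the alternatives for named genes, 208 lost a call, 1 (Gli3 without Ptch1+/- replicate 2) gained one and 1355 stayed on the same side. Readings near the array median, where background makes up most of the signal, limit the folds of Hrk, Tbx4, Gpat2 and Trpc1.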

Other observations

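Further lists that gave no shift at both sites were described by their counts of calls for all A1G against Ptch1+/- tumours, where 3.55% of all genes were called. Of 15 Notch pathway, 12 Wnt pathway and 14 p53 target genes 0 were called, with list medians of 0.04, -0.02 and -0.13, against -0.05 over all genes. For A1G metastatic against Ptch1+/- tumours 3, 1 and 1 of them were called, against 9.85% of all genes. None of 13 immediate early genes was called (median 0.23), and 2 of 11 heat shock genes rose, against 2.27% of all genes. These were the small heat shock proteins Hspb1 and Hspb8, with called site differences, and Hspb1 lost its call under 13 of 26 alternatives, the averaged A1G pairs among them (adjusted p = 0.11). Microglia and macrophage markers (0 of 15 called), endothelial markers (0 of 14) and astrocyte markers (0 of 11) had list medians of 0.30, 0.28 and 0.15. In these lists 3, 2 and 1 genes were called for A1G metastatic against Ptch1+/- tumours. None of 9 skeletal muscle markers was called over both sites, but 6 were called for A1G metastatic against Ptch1+/- tumours, against 9.85% of all genes. Their median differed by 3.85 at the metastatic and by -0.21 at the primary site. Their array medians in A1G metastatic tumours were 12.35, 12.80, 7.94 and 10.72, against 7.04 to 7.61 in A1G primary and 7.21 to 8.17 in Ptch1+/- tumours, so that muscle genes were high on 3 of the 4 metastatic arrays. Here too, a gene above the array median on the 4 metastatic arrays alone could pass the filter on low signal.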
